A study of Sus scrofa with 24 samples.

Results

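The 10 genes described here are expressed by fibroblasts or act in the extracellular matrix, and they were followed in the longissimus dorsi, the long muscle of the back, of pigs fed 4 dietary fats: POSTN, THY1, FBN1, DCN, COL1A2, SFRP1, DSE, NID2, C1QTNF3 and SPP1. They were chosen by their differences between fats on these same arrays: most for a lower signal with coconut oil than with beef tallow or soybean oil, and COL1A2, C1QTNF3 and SPP1 also with a lower signal with olive oil than with beef tallow in view. Their differences between fats are therefore given as a description, with no test. All probe sets that the platform annotation gives to 1 of the 10 symbols were taken, which made 18 of the 24123 probe sets on the array. Of these 18, 15 passed the filter on low signal, and each of the 10 genes kept its brightest probe set, which stands for the gene below.

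The animals were Landrace × Large White × Duroc crossbred pigs of about 71 kg and 130 days when the feeding began. The added fat, 3.0% of the feed, was beef tallow, olive oil, soybean oil or coconut oil, and no group went without added fat. Each fat was given to 3 gilts (young females) and 3 barrows (castrated males) among the 24 pigs arrayed, so the 8 groups hold 3 pigs each. Pigs were housed 3 to a pen. Which arrayed pigs shared a pen was not known here, so each pig counts as independent, and p-values measure the spread between these animals.

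Muscle fibres are held in a connective tissue made largely by fibroblasts. These cells secrete fibrillar collagens, decorate them with small proteoglycans, lay microfibrils alongside them, and anchor each fibre in a basement membrane. Matricellular proteins such as periostin and osteopontin carry little load themselves and act as signals between the matrix and the cells within it. In whole muscle, fewer cells of a type and less RNA per cell cannot be told apart.

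The deposited signals were on 1 scale, with a trimmed mean of 500.1 to 500.2 on every array and medians from 138 to 174. Pairs of arrays correlated at 0.863 to 0.967 over the 14399 tested probe sets. Pigs 11 and 12, gilts fed soybean oil and olive oil, and pig 16, a barrow fed beef tallow, had the arrays least like the others, and pigs 12 and 16 also held many of the highest values below. All 10 muscle fibre markers that the array names, of 12 listed, had mean signals of 22379.6 or more. No marker of any cell type listed was at 0 in any pig, which does not show that each was detected. S100A4, PTPRC, SOX10 and AHSP had mean signals of 45.6, 80.9, 23.1 and 36.0, under the filter signal of 86.3.

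**Figure D1:**
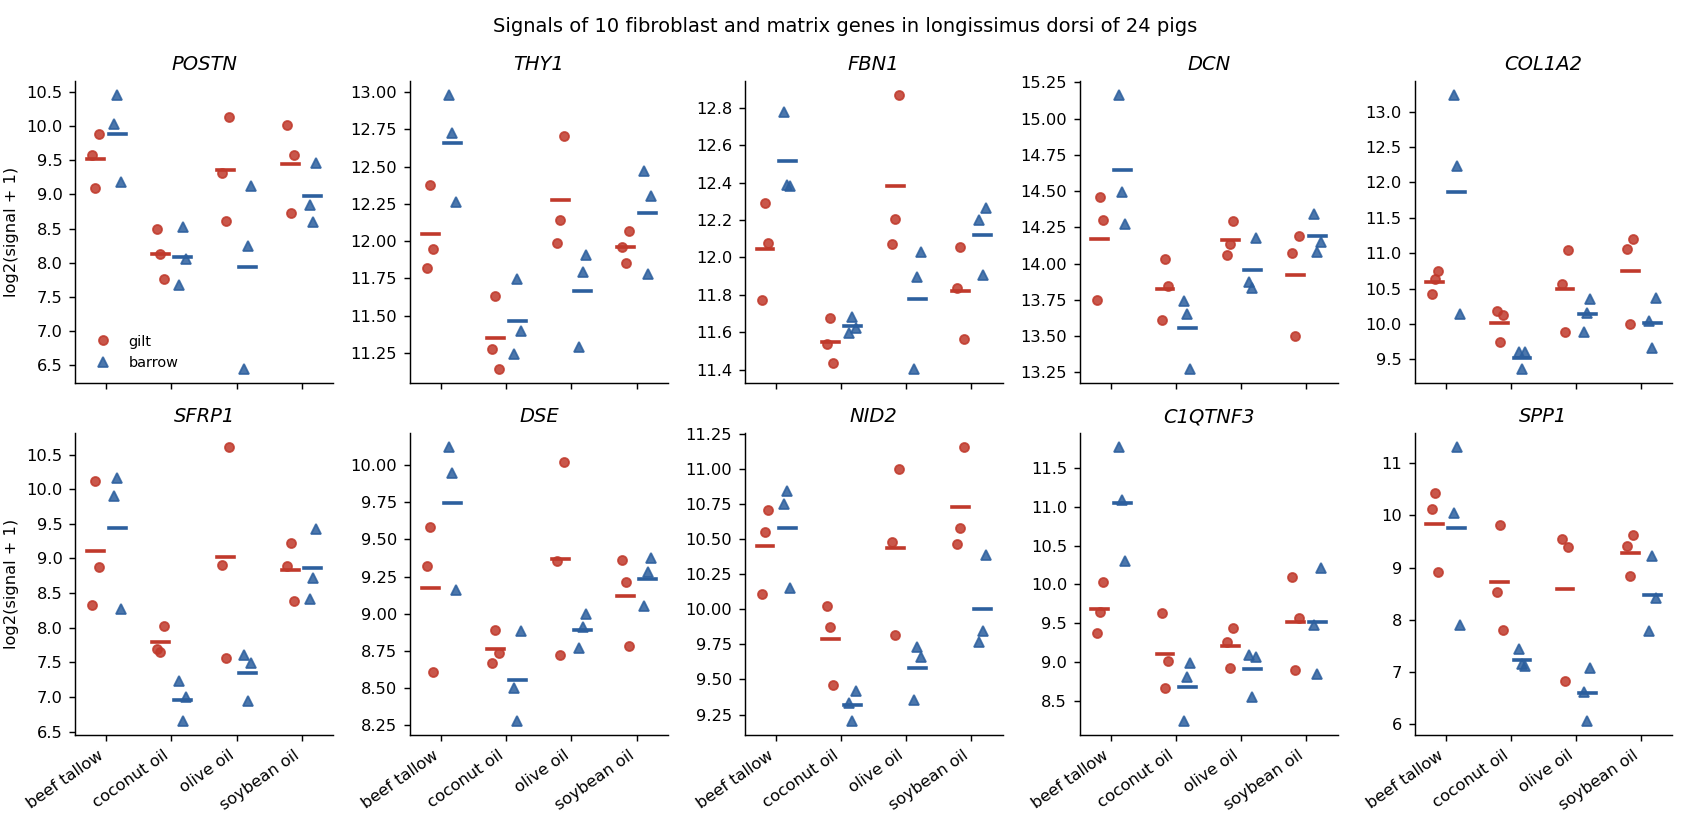
Signal of the 10 genes in each pig on a log2 scale, by dietary fat, with gilts and barrows marked separately and a panel for each gene. In barrows every coconut oil value lies below every beef tallow value for all 10 genes (17.7% of tested probe sets), and in gilts for 6 of the 10 (6.19%).

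Among the structural matrix genes, COL1A2, which encodes a chain of type I collagen, had the widest range. In barrows fed beef tallow its signal was 9662, 4788 and 1134 in pigs 16, 21 and 24, against 778, 659 and 781 in the 3 barrows fed coconut oil. In gilts it was 1374, 1588 and 1715 with beef tallow and 1162, 861 and 1117 with coconut oil. The groups did not overlap in either sex taken alone, but the lowest tallow barrow lay within the range of the coconut oil gilts. The mean difference of coconut oil from beef tallow was -1.46 ± 0.35 (log2, SE, 6 pigs a fat), a 2.75-fold lower signal, and without pig 16 it was -1.12.

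FBN1 encodes fibrillin-1, the main protein of microfibrils, and was the steadiest of the 10. Coconut oil pigs lay between 2773 and 3280 signal units in both sexes, below all 6 beef tallow pigs, which ran from 3494 to 7023. The difference was -0.69 ± 0.15, the smallest among the 10 genes. NID2, a nidogen that links the laminin and collagen networks of basement membranes, was at 1101 to 1835 in the 6 beef tallow pigs and at 589 to 1041 in the 6 coconut oil pigs, again without overlap, with a difference of -0.96 ± 0.20.

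DCN encodes a proteoglycan and DSE an enzyme that modifies proteoglycan chains. Decorin, the product of DCN, binds collagen fibrils, and DSE encodes an epimerase that turns chondroitin sulfate into dermatan sulfate, the chain decorin carries. The DCN signal was 36705, 23029 and 19769 in barrows fed beef tallow and 13699, 12856 and 9902 in barrows fed coconut oil. Gilts overlapped, at 13782, 22496 and 20182 with beef tallow and 12494, 16764 and 14696 with coconut oil. For DSE the barrows were at 571 to 1115 with beef tallow and 309 to 472 with coconut oil, while the gilts overlapped at 389 to 767 and 405 to 474. The differences over both sexes were -0.71 ± 0.17 for DCN and -0.80 ± 0.21 for DSE.

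The matricellular genes were POSTN and SPP1. POSTN encodes periostin, which fibroblasts secrete into collagen-rich matrix. It was at 760, 544 and 944 in gilts fed beef tallow and at 361, 280 and 216 in gilts fed coconut oil. Barrows gave 1050, 1407 and 578 with beef tallow and 203, 367 and 264 with coconut oil, so no coconut oil pig reached any beef tallow pig. The POSTN difference was -1.60 ± 0.37, a 3.02-fold lower signal.

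SPP1 encodes osteopontin, a secreted ligand of integrins that macrophages also make. Its signal spread most between pigs of 1 group, with a within-group SD of 1.00 on the log2 scale, above that of 99.0% of tested probe sets. Barrows fed beef tallow were at 1052, 2545 and 240, those fed coconut oil at 174, 141 and 138, and those fed olive oil at 97.9, 66.0 and 135. Gilts fed coconut oil reached 897 in pig 5 and overlapped the beef tallow gilts, which ran from 483 to 1383. Pig 18, fed olive oil, lay under the filter signal of 86.3, as did pig 17 for POSTN at 86.2, so those 2 values are dim.

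THY1, SFRP1 and C1QTNF3 act at the cell surface or as secreted signals. THY1 (CD90) is a surface glycoprotein of fibroblasts, SFRP1 is a secreted antagonist of Wnt ligands, and C1QTNF3 is a secreted relative of adiponectin. THY1 was at 3611 to 8091 in the 6 beef tallow pigs and 2257 to 3434 in the 6 coconut oil pigs, without overlap. SFRP1 had the largest difference of the 10 genes, -1.90 ± 0.41, a 3.73-fold lower signal. Its coconut oil barrows were at 149, 99.6 and 127 and its beef tallow barrows at 955, 1148 and 308. C1QTNF3 separated by sex: barrows were at 3502, 2167 and 1264 with beef tallow and 301, 447 and 506 with coconut oil, but gilts at 663, 797 and 1040 and at 794, 403 and 515 overlapped.

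Across the 10 genes the difference of coconut oil from beef tallow was negative throughout, with a median of -1.21, where the median over all tested probe sets was -0.04. It remained negative for 10 of 10 with quantile normalization, with each array centred on its median and without pigs 11, 12 and 16, when the median was -1.02. Centring moved the median of all tested probe sets to 0.09 and that of the 10 genes to -1.09. Coconut oil was wholly below beef tallow for 5 of the 10 genes over both sexes, as it was for 1.28% of all tested probe sets. Within gilts this held for 6 genes and 6.19% of probe sets, and within barrows for 10 genes and 17.7%. Coconut oil was also wholly below soybean oil for POSTN, THY1 and SFRP1 over both sexes (0.847% of probe sets), for 4 genes in gilts (8.42%) and for 9 in barrows (11.9%). The choice of the genes used these differences, so nothing further is read from the counts.

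The other fats mostly lay between when the sexes were pooled. Over both sexes the mean was highest with beef tallow for 10 of 10 genes and lowest with coconut oil for 9 of 10, SPP1 being lowest with olive oil. In that order the step from coconut oil to its neighbour exceeded the larger SD of the pair for THY1, FBN1, DCN and COL1A2 alone. No later step did for any gene. Within barrows beef tallow was highest for 10 genes and coconut oil lowest for 8. Their steps from lowest to highest fat exceeded the larger SD for 6, 8 and 6 genes. Within gilts beef tallow was highest for 5 genes, olive oil for 3 and soybean oil for 2, and coconut oil was lowest for 9. Their steps did so for 6, 0 and 0 genes. Differences of soybean oil from beef tallow had a median of -0.39, and those of olive oil a median of -0.71.

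In these pigs olive oil stood differently in the sexes, which is given as a description of 3 pigs a group. In barrows it was below beef tallow for all 10 genes, with a median difference of -1.37, and 9 genes did not overlap (13.9% of tested probe sets). In gilts the median difference was -0.05, 7 of 10 genes were negative and none was without overlap (3.31%). THY1, for example, was at 2499, 3545 and 3833 in olive oil barrows but at 4050, 4523 and 6680 in olive oil gilts. Pig 12, an olive oil gilt, held the highest FBN1 and SFRP1 signals of all 24 pigs, 7483 and 1565.

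**Figure D2:**
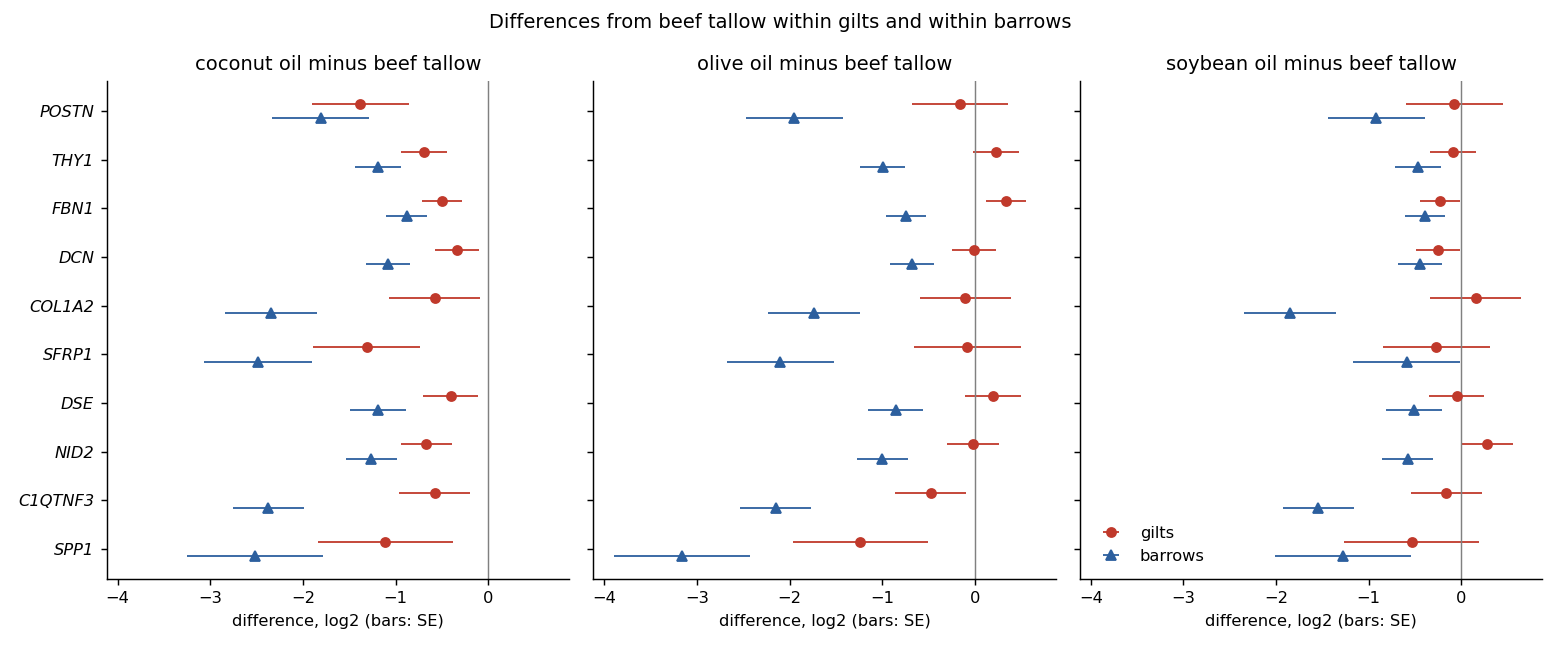
Difference from beef tallow on the log2 scale for each gene with coconut, olive and soybean oil, in gilts (circles) and barrows (triangles), with bars of 1 SE from the limma fit and 3 pigs a group. With olive oil the barrows lie left of zero for all 10 genes while the gilts scatter around it.

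Whether the coconut oil difference itself differed between the sexes was also tested. Values by sex may have been in view when the genes were chosen, so the independence of this test from the choice is not established. All 10 differences were more negative in barrows, by 0.39 to 1.80 on the log2 scale, and 56.9% of all tested probe sets also pointed that way. For C1QTNF3 the difference was -2.38 ± 0.38 in barrows and -0.58 ± 0.38 in gilts, a gap of -1.80 ± 0.54. For COL1A2 the gap was -1.76 ± 0.70, moving to -1.08 without pig 16 and to -2.62 without pig 24. Single pigs also moved others by over 1.5 times: POSTN went from -0.42 to -0.14 without pig 21 and to -0.78 without pig 24, SPP1 from -1.41 to -0.63 and -2.33 without the same pigs, FBN1 from -0.39 to -0.25 without pig 2, SFRP1 from -1.17 to -1.76 without pig 24, DCN from -0.75 to -0.48 without pig 16 and DSE from -0.78 to -0.50 without pig 10. No gene passed: limma's Benjamini-Hochberg adjusted p was 0.856 to 0.948 over the 10 genes, and 0 of 14399 probe sets (0%) were called, with 796 at an unadjusted p under 0.05. Unadjusted, 3 of the 10 genes were under 0.05, which 5.53% of all probe sets were.

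A moderated F over the 3 interaction terms asked the same of all 4 fats together. It called 0 of 14399 probe sets, with 895 (6.22%) under an unadjusted 0.05, and gave the 10 genes limma adjusted p-values from 0.778 to 0.824. Unadjusted, THY1, FBN1, COL1A2 and C1QTNF3, 4 of the 10, were under 0.05. The different position of olive oil in gilts and barrows was not tested by itself and is a description of these 24 animals. Over the 10 genes, the barrow minus gilt difference of olive oil minus beef tallow had a median of -1.43. That of coconut oil minus beef tallow had a median of -0.77.

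Barrows and gilts were also compared over all fats, a contrast in which the fats balance out. NID2 was lower in barrows, with a difference of -0.48 ± 0.14 and a limma adjusted p of 0.0496. That call stood at the edge of the threshold: it held only without pig 2, 7, 9 or 19 when pigs were left out in turn, and the adjusted p was 0.124 without pigs 11, 12 and 16 and 0.110 without the filter. SPP1 showed the largest difference, -1.09 ± 0.37, with an adjusted p of 0.0881 that passed without pig 7 or pig 21. Thus 1 of 10 genes was called, against 4.77% of all tested probe sets in either direction and 2.51% lower, and the other 8 genes ran from -0.54 ± 0.29 for SFRP1 to 0.16 ± 0.19 for C1QTNF3.

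Within single fats the sign of the sex difference varied, which is given as a description. Barrows were above gilts for 9 of 10 genes with beef tallow (median 0.47), below them for 8 with coconut oil (median -0.35) and for 10 with olive oil (median -0.61), and split 5 to 5 with soybean oil (median 0.01). Soybean oil against olive oil gave no call among 14399 probe sets (0%, with 458, or 3.18%, at an unadjusted p under 0.05 by limma). Among the 10 genes the differences there ran from -0.11 for FBN1 to 1.29 ± 0.52 for SPP1, whose low signal with olive oil was part of its choice.

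**Figure D3:**
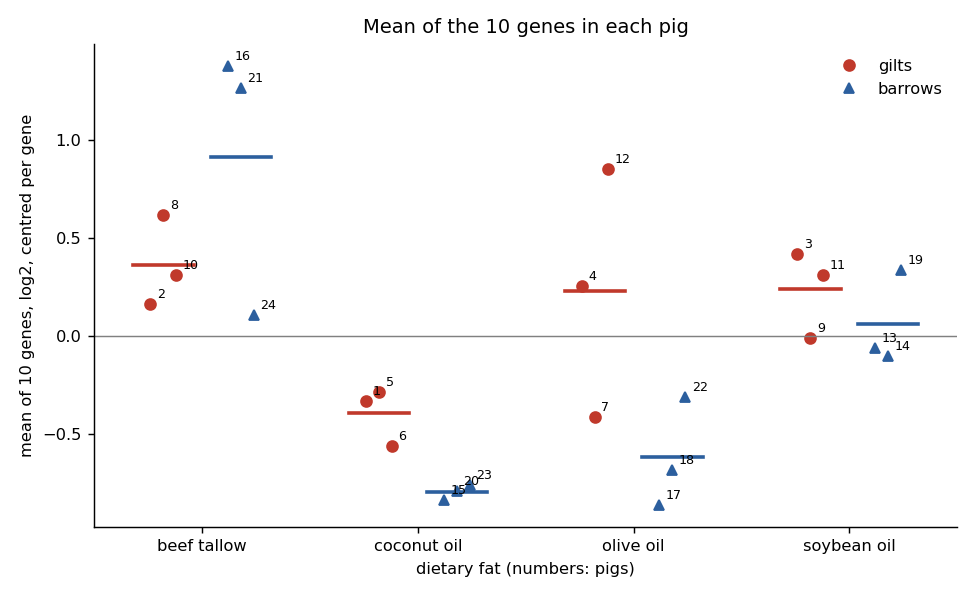
Mean of the 10 genes in each pig on the log2 scale, after each gene was centred on its mean over 24 pigs, by dietary fat, with pig numbers beside the points. Beef tallow pigs span 0.11 to 1.38 and coconut oil pigs -0.84 to -0.29.

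Averaged over the 10 genes, each centred on its own mean, the pigs differed widely within a diet. Beef tallow pigs averaged 0.64 ± 0.56 (SD, n = 6), with pigs 16 and 21 at 1.38 and 1.27 and pig 24 at 0.11. Coconut oil pigs averaged -0.60 ± 0.24 (SD, n = 6), and its 3 barrows lay close together at -0.84, -0.79 and -0.76. Olive oil pigs ran from -0.86 to 0.85 and soybean oil pigs from -0.10 to 0.42. Pig 16 was the highest of all 24 for 5 genes, pigs 12 and 21 for 2 each and pig 11 for the other.

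The genes also varied together within groups. Deviations from the 8 group means hold none of the fat differences by which the genes were chosen, and 16 of the 24 deviations of a gene are free. All 45 pairs of genes correlated above 0, with a median Pearson r of 0.47 and a Spearman median of 0.42. Of the pairs, 20 exceeded 0.5 (44.4%), where 6.49% of pairs of a listed gene with any other tested probe set did. By Spearman 12 pairs (26.7%) exceeded 0.5. The same number did by Pearson when each pair was taken without the 2 pigs farthest from the median deviation of its first gene. Without pig 16, 44 of the 45 stayed above 0. The values of 1 pig share an array and its scaling, and the correlations are a description.

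SFRP1 and DSE were the closest pair (r = 0.79, rho = 0.68 over 24 pigs), followed by THY1 with FBN1 (r = 0.77, rho = 0.80) and COL1A2 with C1QTNF3 (r = 0.74, rho = 0.74). SPP1 and FBN1 were the loosest, at r = 0.10. The median over pairs was 0.41 in gilts, 0.57 in barrows and 0.35 without pigs 11, 12 and 16. Leaving out, for each pair separately, the 2 pigs farthest from the median deviation of its first gene gave 0.38.

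**Figure D4:**
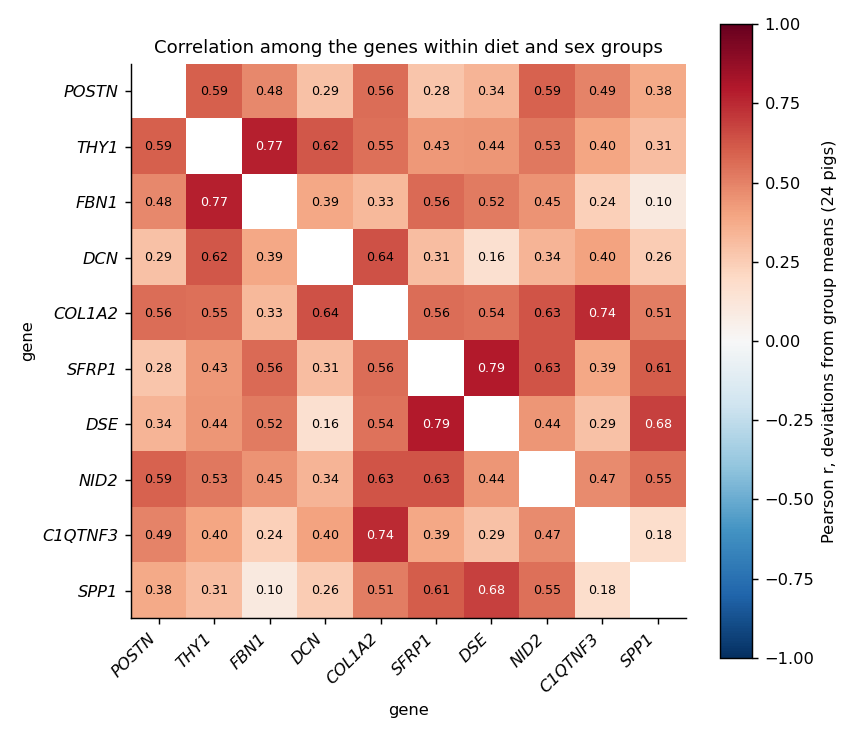
Pearson correlation between each pair of the 10 genes over 24 pigs, computed on deviations from the 8 group means, with the color scale running from -1 to 1. All 45 pairs are positive, from 0.10 for FBN1 with SPP1 to 0.79 for SFRP1 with DSE.

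Among 5335 other genes, those whose deviations were most like the mean of the 10 were FN1 (r = 0.94), FNDC1 (0.90), PDGFRL (0.90), CITED1 (0.88), LOC100510975 (0.88), COPZ2, FOLR2, FAM114A1, FAP and KDELR3, the last 5 at 0.87 over 24 pigs. By Spearman these 10 ran from 0.68 for FOLR2 to 0.91 for FN1. FN1 encodes fibronectin and FAP a surface protease of fibroblasts, and the functions of the others were not considered. Single genes had their own nearest patterns: COL1A2 was closest to FAM46A (r = 0.96), CHRNA1 and QSOX1, FBN1 to COL5A1 (r = 0.87), SEPT7 and SCARA5, POSTN to GALNS (r = 0.81), COL6A3 and CTNNBL1, and NID2 to CCDC80 (r = 0.86), FKBP14 and FIBIN. THY1 was closest to CTSH (r = 0.88), FAP and LOC100517855, DCN to SDF4 (r = 0.84), ENPP1 and EF1ALPHA, and SFRP1 to TSPO (r = 0.88), PC and TPCN2. DSE was closest to XRCC5 (r = 0.80), TSKU and SQOR, C1QTNF3 to FAM114A1 (r = 0.80), AEBP1 and RRBP1, and SPP1 to C3H2orf40 (r = 0.82), UBE2C and CLN8. By Spearman the matches of single genes ran from 0.63 for SPP1 with CLN8 to 0.90 for COL1A2 with FAM46A.

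The other tested probe sets gave differences of other sizes in the same direction. Those of THY1, FBN1, SFRP1 and DSE correlated with the brightest one at r = 0.63 to 0.94 over 24 pigs. DSE differed by -1.84 between coconut oil and beef tallow on its dimmer probe set and by -0.80 on its brighter one, and the dimmest THY1 probe set by -1.76. On that dimmer DSE probe set 4 of the 6 coconut oil pigs lay under the filter signal, and on that THY1 probe set 2 did. The second probe sets of POSTN, DCN and COL1A2 were under the filter, at mean signals of 12.7, 6.76 and 48.2, and were not tested. That of DCN averaged 8.00 with coconut oil and 7.98 with beef tallow, at r = -0.16 with the brighter one over 24 pigs.

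Related matrix genes outside the 10 shared the direction but seldom passed. Their lists were chosen with earlier results of these data known, so their counts are a description and no independent evidence. Of 122 genes in 12 lists of matrix and signalling genes, 67 were tested, 60 were lower with coconut oil than beef tallow (median -0.43), 6 passed the test as lower and none as higher, against 0.861% of all tested probe sets called lower and 0.257% called higher (1.12% in all). With each array centred on its median 55 of the 67 were lower, and with quantile normalization 57. The 6 that passed as lower were FKBP10, ASPN, FAP, FN1, COL6A2 and LAMB1. FKBP10, a collagen chaperone, differed by -1.31 ± 0.23 (limma adjusted p = 0.0229). ASPN, a small proteoglycan, differed by -1.19 ± 0.27, FAP by -1.003 ± 0.229 and FN1 by -0.83 ± 0.20. COL6A2, a chain of type VI collagen, differed by -0.76 ± 0.19 and LAMB1, a laminin chain, by -0.69 ± 0.15. Each call was lost when certain single pigs were left out, pigs 6, 8, 10, 15, 16 and 21 for FKBP10 and between 11 and 20 of the 24 pigs for the others. All 6 calls were also lost with the additive model, which called 0 probe sets between these fats.

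By list, 1 gene passed as lower among 8 collagens, 1 among 5 small proteoglycans and 1 among 3 basement membrane genes. Another 1 passed as lower among 5 matricellular and adhesive genes, 1 among 9 genes of collagen folding and 1 among 8 remodelling genes. No gene passed among 4 genes of chondroitin and dermatan sulfate synthesis, 4 of microfibrils, 2 Wnt antagonists and 7 of TGF-beta signalling. Nor did any among 7 matrix receptors and 5 genes for adiponectin, its receptors and its relatives. ADIPOQ, LUM and COL3A1 of these lists are also among the cell type markers below. COL3A1, a fibrillar collagen, gave 0.11 ± 0.38, and SPARC, LUM and BGN gave -0.38, -0.64 and -0.68, none past the test. Between the sexes PRELP, a small proteoglycan, was the single gene called of 67 related ones, against 2.51% of all tested probe sets called lower and 4.77% in all. It was lower in barrows (-0.79 ± 0.23, limma adjusted p = 0.0487), a call lost in 19 of 24 runs that left out a pig.

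**Figure D5:**
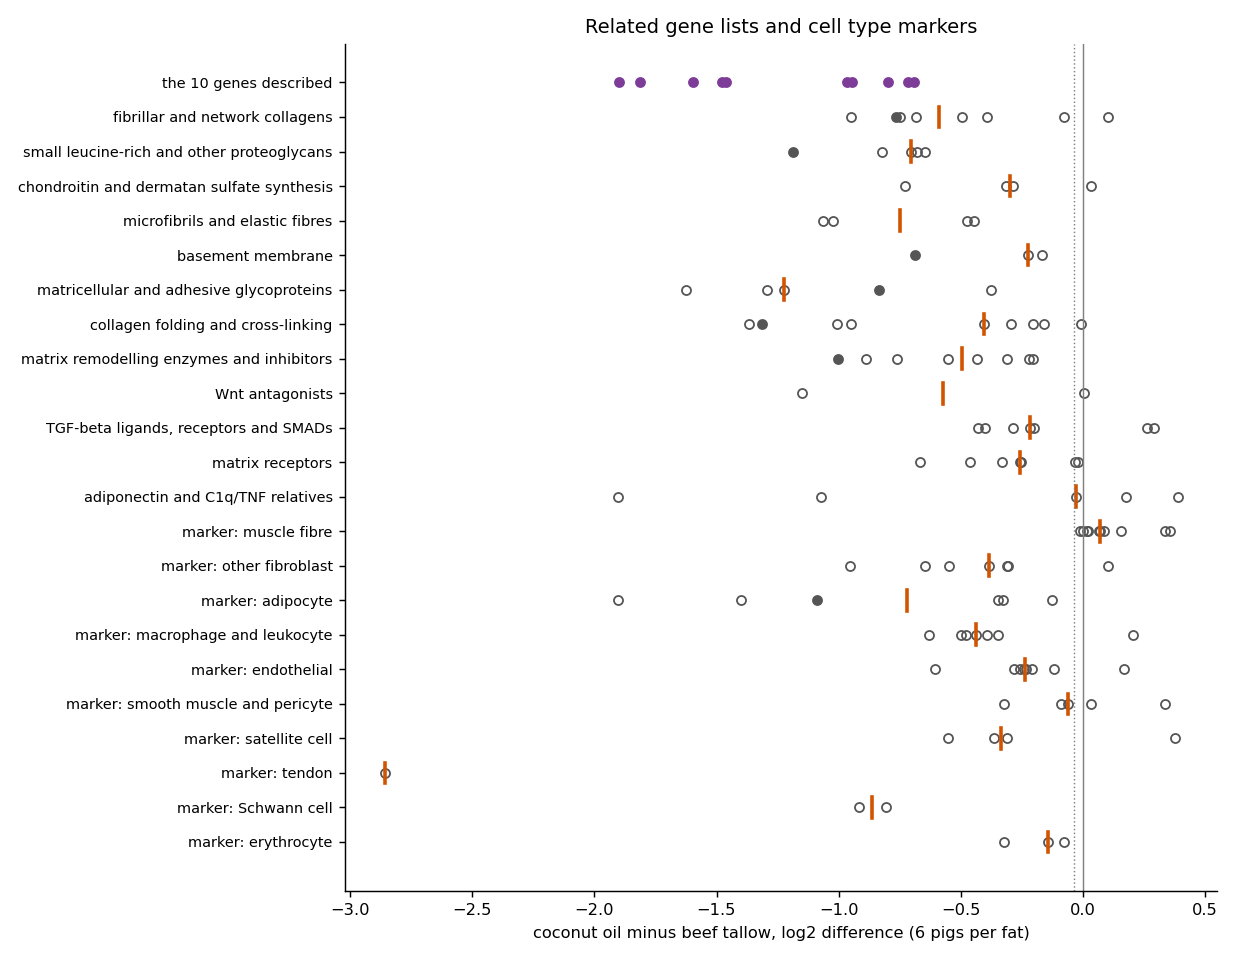
Difference of coconut oil from beef tallow on the log2 scale for each tested gene of the related lists and marker lists. Purple points are the 10 genes, filled grey points passed an adjusted p of 0.05, open points did not, orange ticks are list medians and the dotted line is the median of all tested probe sets, -0.04.

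Among 52 tested cell type markers 1 gene, FABP4, passed between coconut oil and beef tallow. Of all tested probe sets 1.12% were called there, 0.861% as lower, and 55.4% had a negative difference, called or not. The FABP4 call too was lost with the additive model. The summed signal of 6 adipocyte markers was 12040 to 23134 with coconut oil and 16072 to 48511 with beef tallow. All 6 were lower with coconut oil, FABP4, a fatty acid binding protein of adipocytes, passed (-1.09 ± 0.27, limma adjusted p = 0.0483, lost in 20 of 24 runs that left out a pig), and the deviations of the adipocyte list correlated with those of the 10 genes at r = 0.60 over 24 pigs. That r was 0.64 for COMP, 0.45 for other fibroblast, 0.38 for Schwann cell, 0.25 for macrophage, 0.12 for smooth muscle, 0.06 for erythrocyte, 0.03 for endothelial, -0.29 for muscle fibre and -0.31 for satellite cell markers. Without the 3 arrays least like the others, r stayed at 0.59 for adipocyte markers and 0.63 for COMP. It became 0.49 for Schwann cell, 0.36 for other fibroblast and 0.07 for macrophage markers. The sign turned for smooth muscle (-0.19), endothelial (-0.08) and erythrocyte markers (-0.0032). Muscle fibre and satellite cell markers were then at -0.26 and -0.25. COMP, the single tendon marker on the array, differed by -2.86 and did not pass. Macrophage markers, 2188 to 5279 against 3005 to 7337 in sum, were lower for 6 of 7 with none passing, and endothelial markers for 7 of 8 with none passing (6 of 8 with each array centred on its median). None passed either among other fibroblast markers (6 of 7 lower, sums of 29850 to 45804 against 38012 to 72398), Schwann cell (2 of 2 lower), satellite cell (3 of 4), erythrocyte (3 of 3, and 2 of 3 after centring) and smooth muscle markers (3 of 5, and 1 of 5 after centring). DES, at a mean signal of 25085 and a difference of 0.34, stands in both the smooth muscle and the muscle fibre list. The smooth muscle values are therefore not of that cell type alone. Among the satellite cell markers MYF6 was the brightest, at a mean signal of 4157, and MYF5 the dimmest, at 99.3. Whether each list stands for its cell type in this muscle was not tested. The 10 muscle fibre markers had a median of 0.07, or 0.20 after centring, with none passing, and sums of 361346 to 462176 against 312957 to 425932. The marker lists too were chosen with earlier results of these data known. The part of these cell types in the lower matrix signals was not tested.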

How the data were processed

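RNA from 24 longissimus dorsi samples was hybridised to 1-colour Affymetrix pig arrays, 1 per pig. The authors deposited linear signal intensity per probe set; the summarisation algorithm and scaling are not given in the sources used here. Genes were named from the platform annotation. With the 124 control probe sets left out, log2(signal + 1) was taken, and probe sets whose mean log2 signal reached the 40th percentile (a signal of 86.3) were tested, 14399 in all. The mean of log2 signals was settled on after counts of calls with the mean of linear signals had been seen; that alternative is in the closing section. A mean per combination of fat and sex was fitted over all 24 arrays with limma 3.58.1 in R 4.3.3 (lmFit, eBayes), two-sided, with Benjamini-Hochberg adjustment over all tested probe sets and a threshold of 0.05. The fit was tested on simulated data. The genes, the related lists and the marker lists were chosen with earlier results of these data known. Named beyond the 10 genes are SPARC, COL3A1, LUM, BGN and FN1, up to 4 genes past the threshold per list, and the genes whose deviations from group means correlated most with the 10. COMP is named as the single marker of its list. The number of arrays limits the precision. Alternatives were other filters, scalings, pseudocounts, spread estimates, models and leaving out pigs.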

Additional observations from a re-analysis of the deposited data

Results flagged for a closer look

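In the 6 pigs fed soybean oil, DCN was lowest in pig 9, a gilt, at 13.50 on the log2 scale, where the nearest pig was at 14.07. The gap was 0.679 of the whole range of the group, above Dixon's critical value of 0.625 for 6 samples. It was 1 of 40 groups tested, and chance flags about 1 in 20.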

How the results depend on the processing

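No paired analysis was possible because each pig carries a number of its own and no number is shared between groups. The 161 calls of coconut oil minus beef tallow became 6 with no filter, 279 with a filter at the 60th percentile, 51 with quantile normalization, 1264 with array weights, 0 with the additive model and 260 without pigs 11, 12 and 16, and ran from 0 to 664 when pigs were left out in turn. The 687 calls of barrow minus gilt became 302 with no filter, 1530 with array weights and 416 without those 3 pigs, with 386 to 1057 over single pigs left out. The difference of the coconut oil effect between sexes gave 1 call with array weights. Over single pigs left out, soybean oil minus olive oil gave 0 to 1 calls and the interaction F 0 to 2. The filter used, on the mean of log2 signals, was settled on after counts with the mean of linear signals had been seen, which were 168 calls of coconut oil minus beef tallow and 696 of barrow minus gilt. Calls of coconut oil minus beef tallow were lower in 77.0% as deposited and 38.4% after each array was centred on its median, and those of barrow minus gilt in 52.5% and 37.9%. The median difference of the 10 genes ran from -1.37 to -1.02 over single pigs left out. Their median correlation was 0.69 on log2 signals in place of deviations and 0.36 to 0.51 over single pigs. Signs turned for DSE between sexes (0.00; -0.18 on its other probe set, -0.0072 without those 3 pigs, -0.080 to 0.082 over single pigs), for COL1A2 between sexes (-0.25 to 0.14) and for SPP1 with olive against coconut oil (-0.63 to 0.056). Causes were not tested. NID2 lost its call between sexes at adjusted p-values of 0.0569 with quantile normalization and 0.0650 with the additive model.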

Other observations

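Between the sexes, 2 of 52 tested marker genes (3.85%) passed the test, where 4.77% of all tested probe sets did. LPL, the lipase that frees fatty acids from circulating lipoproteins, was lower in barrows (-0.59 ± 0.14, limma adjusted p = 0.0235). MYF6, a myogenic transcription factor, was higher in barrows (1.02 ± 0.25, limma adjusted p = 0.0240), a call lost without pig 14.

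Within each sex the 67 related matrix and signalling genes had a median difference of coconut oil from beef tallow of -0.26 in gilts, where 51 were negative, and -0.75 in barrows, where 62 were. Matricellular and adhesive genes had medians of -0.53 and -1.62, small proteoglycans -0.54 and -1.06, and matrix receptors -0.26 and -0.32. The medians over all tested probe sets were -0.0049 and -0.074. The difference between the sexes was not tested for the lists.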
